A study of Mus musculus with 20 samples.

Results

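The comparison set the ascending aorta of mice on a high fat diet against that of mice on chow at week 30, the last time point of a study of microRNAs (miRNAs) in lesion-bearing aorta. It rests on 6 of the study's 20 arrays, 3 for each diet, chosen by their labels alone. All mice, chow and high fat alike, were males of the genotype labelled Apobtm2Sgy/Ldltm1Her, so every group carried both alleles, and the tissue label of both diets names an atherosclerotic lesion. Each sample's total RNA was hybridised in 1 colour to its own Agilent mouse miRNA array. The labels give the same 30 weeks as the age and as the time on the diet, so the age at the start is not settled by them. The labels do not say whether an array holds 1 animal or a pool, and the p-values reflect only how far these arrays differed, which may be technical.

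A miRNA is a short RNA that guides a silencing complex to messenger RNAs which pair with its seed, and lowers the protein made from them. In the artery wall, miR-143 and miR-145 mark contractile smooth muscle, miR-126 marks endothelium, and miR-142, miR-223 and miR-150 come with blood leukocytes. Other miRNAs act on lipid handling, among them miR-148a and miR-144, which target carriers and receptors of cholesterol.

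The mature sequences below belong to miRNAs on which the comparison turned, so that the base composition of those higher and lower in high fat can be read side by side. They are from RefSeq (GRCm38.p6), run 5′ to 3′, and have the seed (bases 2 to 8) in capitals. The first 6 are among the miRNAs with the smallest p on the higher side and the next 6 among those on the lower side.
miR-5135: aGGUCUAGguggcaagggcguccu
miR-8099: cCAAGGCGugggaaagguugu
miR-2861: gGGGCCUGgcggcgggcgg
miR-7016-5p: cAGGGAGGggagcgagaguag
miR-296-5p: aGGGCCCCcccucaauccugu
miR-6370: gCAGGAACagcaaaggggaag
miR-302c-3p: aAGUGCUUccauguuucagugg
miR-7661-3p: uUGACUCCcaguuucucucugc
miR-182-5p: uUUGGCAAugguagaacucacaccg
miR-96-5p: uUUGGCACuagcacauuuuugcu
miR-148a-3p: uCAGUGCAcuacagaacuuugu
miR-455-5p: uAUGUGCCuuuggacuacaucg
Of the 609 miRNAs tested, 496 had a mature sequence there under the array's name. The next sequences, of the let-7, miR-15/16 and miR-29 families, are shown because all tested miRNAs with these 3 seeds had negative differences: 10 with GAGGUAG, 6 with AGCAGCA and 3 with AGCACCA. The same held for other seeds, among them AAAGUGC (5 tested), and 326 of all 609 differences were negative.
let-7f-5p: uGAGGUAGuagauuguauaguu
let-7g-5p: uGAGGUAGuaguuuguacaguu
miR-98-5p: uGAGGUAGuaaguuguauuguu
miR-15a-5p: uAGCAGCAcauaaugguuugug
miR-16-5p: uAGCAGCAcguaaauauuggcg
miR-195a-5p: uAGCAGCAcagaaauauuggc
miR-29b-3p: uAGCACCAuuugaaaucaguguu
miR-29c-3p: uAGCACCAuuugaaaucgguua

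The arrays differed in ways that lay along the diets. All 3 chow arrays of week 30 were on slide 2 and all 3 high fat arrays on slide 3, so at week 30 slide and diet cannot be told apart. The chow arrays had 550 to 629 miRNAs well above background. High fat replicate 1 had 355, against 742 and 645 on replicates 2 and 3, and its 75th percentile of intensity was 254, against 904 to 1372 on the other week 30 arrays. High fat replicates 2 and 3 were nearly alike: the SD of their log2 differences was 0.18, against 0.45 to 0.70 between chow arrays and 1.20 and 1.23 between replicate 1 and the other two. A week 18 array on slide 3, high fat replicate 3, was also near them (0.19 and 0.33), and far from its own group (1.24 and 1.02). Over single probes it differed from them by SDs of 0.55 and 0.57, against 0.19 between the 2. The probes of week 30 high fat replicates 2 and 3 differed by more than the noise between spots (56.3% of 1055 probes by over 2 standard errors). That noise leaves out differences between hybridisations, so it cannot tell separate samples from the same RNA on 2 arrays. They were kept as separate samples, as labelled, and averaging them was tried as an alternative. Levels below are log2 intensities scaled by each array's 75th percentile. They have a floor of 3.10, at which values have no order, and chow or high fat values listed in threes are replicates 1, 2 and 3.

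No miRNA passed the threshold between the diets. In the limma fit of all 20 arrays, 0 of 609 (0.0%) had a Benjamini-Hochberg adjusted p under 0.05, and the smallest adjusted p was 0.185. At an unadjusted p under 0.05 there were 102 (16.7%), of which 60 were higher in high fat (9.85%) and 42 lower (6.9%). The 3 high fat arrays lay wholly above or below the 3 chow arrays for 330 miRNAs (54.2%), 174 above (28.6%) and 156 below (25.6%). The median difference, high fat minus chow, was -0.14. With only the 6 week 30 arrays in the fit, 117 passed (19.2%), 88 higher (14.4%) and 29 lower (4.76%). All 117 were among those that did not overlap. Without high fat replicate 1, the fit of the remaining 5 arrays called 76, of which 65 were higher. The balance of directions moved with the processing: with no scaling, the 33 miRNAs at an unadjusted p under 0.05 were all lower (0 higher), and with another background correction (normexp) 47 were higher and 8 lower.

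Among the 12 miRNAs of smallest p on the higher side, whose diets did not overlap, differences ran from 1.29 to 2.08 on the log2 scale, and each had an adjusted p of 0.185 in limma. The smallest p belonged to miR-5135, a miRNA of hairpin gene Mir5135 on chromosome 12. It read 3.10, 3.61 and 3.99 in chow and 5.40, 5.64 and 5.89 in high fat, a difference of 2.08 (SE 0.51, 95% confidence interval 1.00 to 3.15). All 3 high fat arrays were well above background for it, but of the chow arrays only 1 was. A known miRNA of this group, miR-290a-5p, comes from a cluster active in embryonic stem cells (probe target chr7:3218647-3218660 on the plus strand of mm9). Its levels were 5.11, 4.80 and 4.29 in chow and 6.39, 5.83 and 6.17 in high fat (difference 1.40, SE 0.41). The other tested arm of that cluster, miR-295-5p, differed by 0.92 (SE 0.40) and did not overlap either.

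miR-320-3p, which is made without the usual Drosha step, read 5.39, 5.58 and 5.39 in chow and 7.36, 6.64 and 6.88 in high fat (difference 1.51, SE 0.45). The chow arrays lay close together, and high fat replicate 1 was the highest of the 6. miR-874-3p read 4.12, 4.65 and 4.45 against 5.72, 5.88 and 6.09 (difference 1.49, SE 0.46; 0.74 after a GC trend was taken out of each array). miR-296-5p, of an imprinted region on chromosome 2, read 5.58, 5.80 and 5.40 against 6.72, 6.62 and 7.42 (difference 1.33, SE 0.43). For miR-2861, whose longest probe is made only of G and C, the chow arrays read 8.89, 8.44 and 8.12 and the high fat arrays 10.47, 9.57 and 9.80 (difference 1.47, SE 0.46; 0.20 after the GC trend was removed). The remaining 6, miR-8099, miR-7226-5p, miR-6370, miR-7016-5p, miR-6954-5p and miR-6386, differed by 1.29 to 1.89. Several of the 12 lie within protein-coding genes in RefSeq (strand not compared): miR-7226 within Ptprf, miR-7016 within Tmem39b, miR-6386 within Plscr1 and miR-8099 within Lysmd1.

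On the lower side, the 12 miRNAs of smallest p differed by -1.34 to -3.24 with values at the floor entered as the floor, again with an adjusted p of 0.185 each. miR-302c-3p, of another embryonic cluster (probe target chr3:127248327-127248345, plus strand, mm9, within the span of Larp7), read 6.70, 7.09 and 5.20 in chow and lay at the floor on all 3 high fat arrays. With the floor in place of those values the difference was -3.24 (SE 1.05), and with the floor lower by 1 it was -3.94, so its size is set in part by the floor. miR-7661-3p, within the span of Itpr1, read 6.82, 7.17 and 5.42 against 3.10, 3.50 and 3.57 (difference -3.08, SE 1.08). Both were well above background on all chow arrays and on 1 high fat array. Their chow arrays ranked alike, with replicate 3 lowest.

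miR-182-5p and miR-96-5p belong to 1 cluster on chromosome 6 that is active in sensory and other epithelia (probe targets chr6:30115934-30115948 and chr6:30119471-30119491, minus strand, mm9). miR-182-5p read 4.90, 4.47 and 4.47 in chow and 3.17, 3.10 and 3.10 in high fat (difference -1.49, SE 0.49). miR-96-5p read 4.49, 5.62 and 4.55 in chow and was not well above background on any high fat array. Their cluster mate miR-183-5p was not tested. miR-148a-3p, a regulator of the low density lipoprotein receptor, read 7.91, 8.29 and 7.89 in chow and 4.40, 7.10 and 6.90 in high fat (difference -1.90, SE 0.65). High fat replicate 1 was far below the other two, and without it the difference was -1.03. miR-455-5p, within the collagen gene Col27a1, read 5.10, 5.22 and 4.17 against 3.10, 3.20 and 3.10 (difference -1.70, SE 0.57). miR-199b-5p, a fibroblast miRNA, read 8.52, 9.35 and 8.37 against 7.34, 7.60 and 7.29 (difference -1.34, SE 0.48), with no overlap. No high fat array stood apart, and chow replicate 2 was the highest. Of 5 fibroblast miRNAs tested, 4 had negative differences, and miR-214-3p had a positive one (0.63, and -0.06 with no scaling). The median of the 5 was -0.84, and -0.35 after the GC trend was removed.

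**Figure D1:**
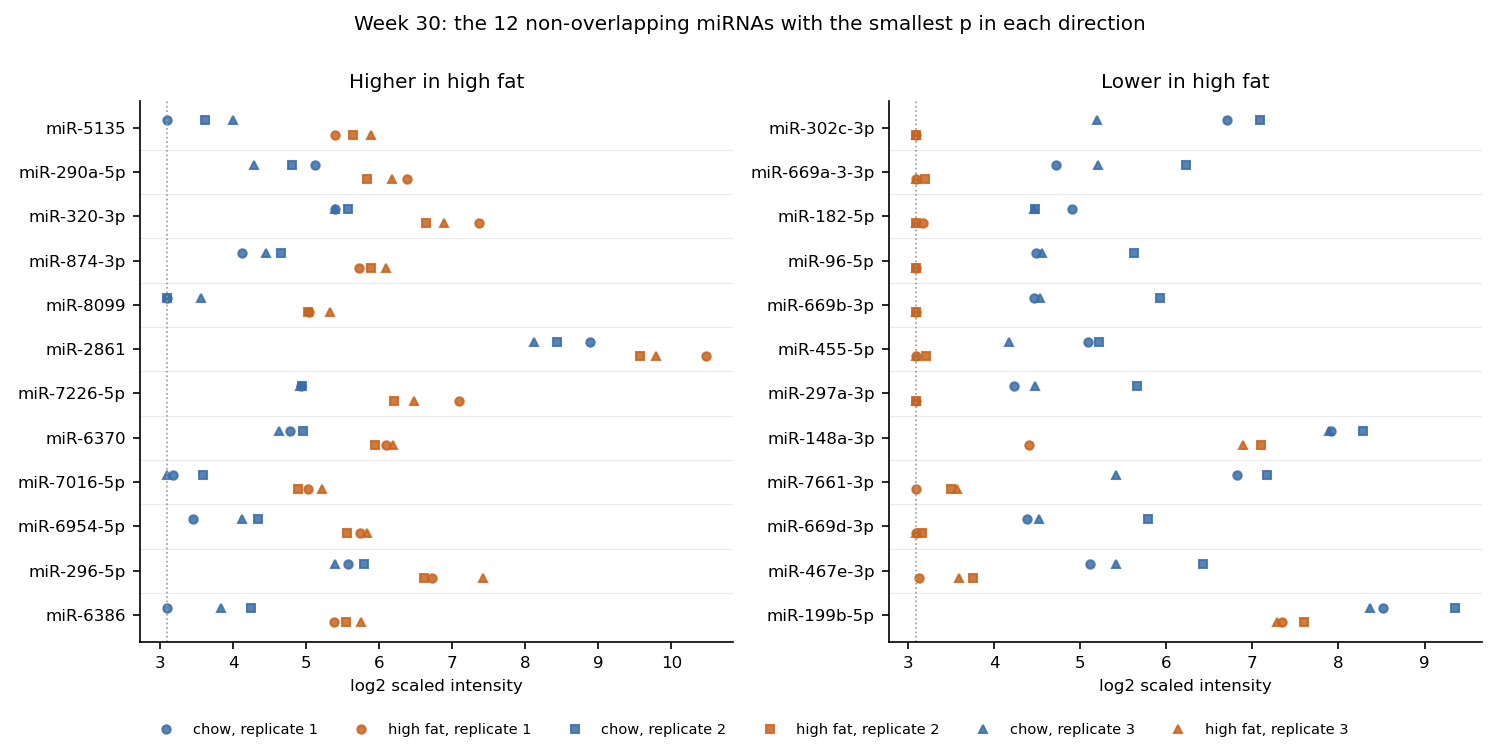
Log2 scaled intensity (horizontal axis) of the 12 miRNAs of smallest p on each side at week 30, with 1 symbol per array (blue chow, orange high fat, shapes for replicates) and the floor of 3.10 as a dotted line. The diets do not overlap for any of the 24, by the way they were chosen, and on the lower side most high fat symbols sit on or near the floor.

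With only the 6 arrays in the fit, 23 of these 24 passed. miR-148a-3p did not (adjusted p = 0.111 in limma). A fit with slide as a fixed term depends on a single array, that of week 18 high fat replicate 3, which shared slide 3 with the week 30 high fat arrays. That array stood apart: the SD of its negative control spots was 22.3, against 2.1 to 2.5 on the others. Its 75th percentile of intensity was the highest of the study (1653), yet only 328 miRNAs were well above background on it. In the fit with slide all 24 kept their sign, but the only miRNA called (0.164% of those tested) was miR-211-5p, which is not among the 24. At an unadjusted p under 0.05 the balance turned to 10 higher (1.64%) and 63 lower (10.3%). With normexp in place of the scanner's background, 5 of the lower miRNAs no longer had a negative difference: miR-182-5p (0.16), miR-455-5p (0.08), miR-669d-3p (0.07), miR-297a-3p (0.06) and miR-96-5p (0.003).

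In all, 9 miRNAs (6 and 3) were well above background on all arrays of one diet and on none of the other. In chow there were 6: relative to the lowest measurable signal, high fat was lower by at least 4.15-fold for miR-6339, at least 3.68-fold for miR-669b-3p, at least 3.46-fold for miR-96-5p, at least 2.68-fold for miR-669l-3p, at least 2.44-fold for miR-6998-3p and at least 2.14-fold for miR-211-5p. miR-6339 read 6.01, 6.18 and 3.25 in chow, so its bound rests on chow replicates 1 and 2, with replicate 3 near the floor. In high fat there were 3: miR-7016-5p was at least 3.37-fold higher there, miR-678 at least 2.72-fold and miR-7027-5p at least 1.99-fold. Each bound compares the mean of the brighter diet with a mean for the dimmer one that takes, on each array, the higher of its lowest detected signal and the value measured. Of the tested miRNAs, 326 were well above background on all 6 arrays, 162 on all 3 chow and 2 high fat arrays, and 5 on none.

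The cells of the wall were represented on both diets (in bulk tissue, fewer cells of a type and less RNA per cell cannot be told apart). Smooth muscle miR-145a-5p read 9.01, 9.03 and 9.03 in chow and 9.98, 9.51 and 9.57 in high fat (difference 0.66, SE 0.36, adjusted p = 0.297 in limma; -0.02 with no scaling). miR-143-3p, from the same transcript, read 10.62, 10.66 and 10.85 against 8.95, 11.02 and 11.01, so that only high fat replicate 1 lay below chow. Endothelial miR-126a-3p read 12.11, 11.03 and 11.83 against 9.53, 11.35 and 11.17 and overlapped between the diets (difference -0.98). The other arm tested, miR-126a-5p, overlapped too (difference -1.54). The median of these arms was -1.26, and -0.51 without high fat replicate 1. Of the cardiac and skeletal muscle miRNAs, none of 5 tested was at an unadjusted p under 0.05 (16.7% of all 609) or free of overlap (54.2%). Within that list high fat replicate 1 stood apart in both directions: miR-133a-3p read 12.21 there and 9.36 to 10.01 on the 5 other arrays, and miR-1a-3p read 7.37 there and 9.98 to 11.06 on the others.

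No leukocyte miRNA had a positive difference: of 6 tested, 5 had negative differences, 3 of them without overlap. Among all 609, 25.6% lay wholly below chow. The list's median was -0.53, against -0.14 over all 609. That median was -0.06 after the GC trend was removed, -1.19 without high fat replicate 1 and 0.82 with slide as a fixed term, where miR-142a-5p, miR-223-3p, miR-342-3p and miR-150-5p had positive differences. miR-142a-3p, made in blood cells of all kinds, read 7.63, 7.55 and 7.48 in chow and 3.29, 6.20 and 5.93 in high fat (difference -2.42, SE 1.01, adjusted p = 0.245 in limma; -1.49 without high fat replicate 1). miR-223-3p, of neutrophils and macrophages, read 7.94, 7.30 and 7.31 against 6.69, 7.09 and 6.87 (difference -0.64, SE 0.56). miR-150-5p, of lymphocytes, read 8.62 on high fat replicate 1 but 5.48 and 5.39 on the other high fat arrays, with 6.16 to 7.08 in chow. Of 5 tested miRNAs induced by NF-kB, 2 had positive and 3 negative differences (median -0.14, and 0.45 after the GC trend was removed). Among them, miR-146a-5p read 4.89, 5.41 and 4.60 against 3.10, 3.55 and 3.36, at or near the floor in high fat (difference -1.63, SE 0.92). Its difference was 0.10 with normexp and 1.99 with slide as a fixed term. miR-155-5p read 4.81, 4.72 and 4.69 against 6.10, 4.64 and 4.89. miR-21a-5p, abundant in injured and inflamed tissue, read 10.43, 11.29 and 10.24 against 6.62, 10.09 and 10.01. Its difference was -1.74 (SE 0.78, adjusted p = 0.272 in limma), and -0.60 without high fat replicate 1.

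Epithelial miRNAs set 1 chow array apart. On chow replicate 2 miR-200a-3p, miR-200b-3p, miR-141-3p, miR-429-3p and miR-200c-3p read 7.51 to 8.57, against 3.10 to 4.02 on the 5 other arrays, and miR-205-5p read 7.87 against 3.10 to 4.34. The list's mean level was 3.84 and 4.11 on chow replicates 1 and 3, 7.14 on chow replicate 2 and 3.37 on each high fat array. All 9 tested members had negative differences, 3 without overlap (25.6% of all 609 lay wholly below chow). At an unadjusted p under 0.05 were 2 of them (6.9% of all 609 were lower there). The list's median of -1.77 became -0.41 without chow replicate 2. On the same array miR-34b-5p, of ciliated epithelium and the p53 response, read 10.22, against 3.10 to 4.92 on the others. The part of such cells in other differences of that array was not tested.

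**Figure D2:**
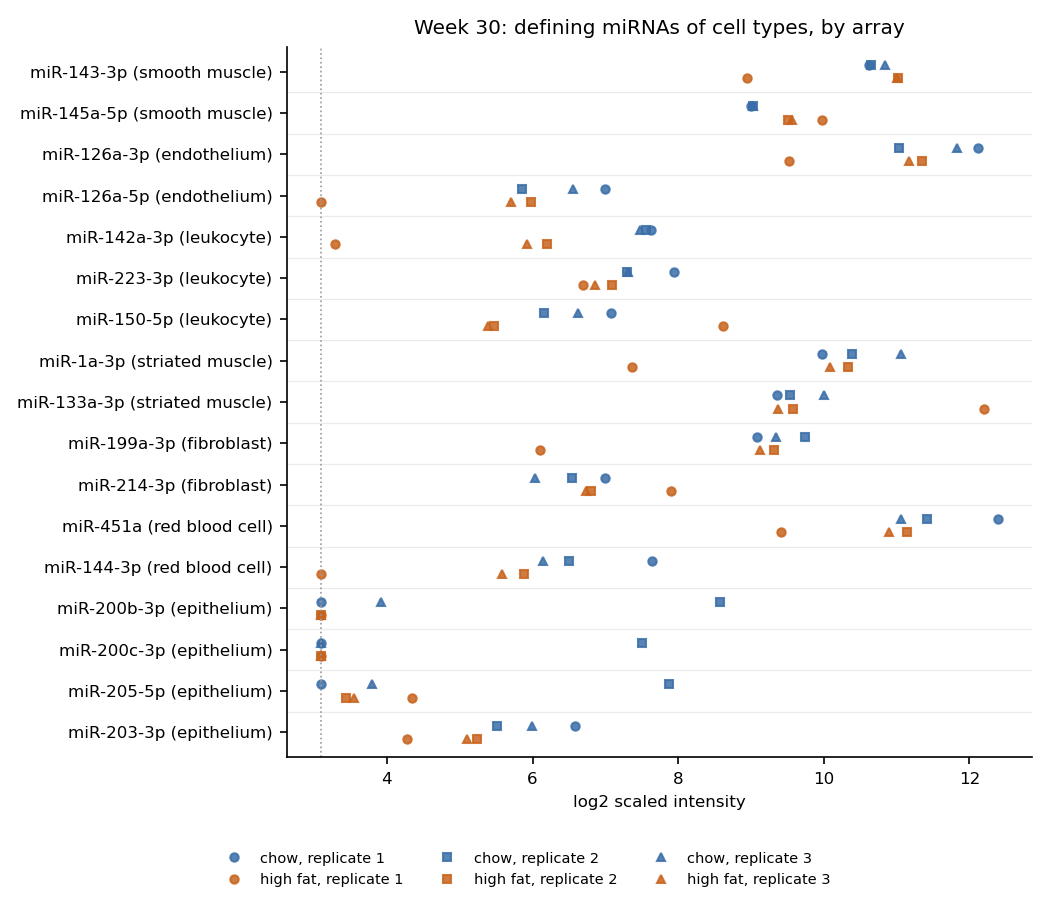
Log2 scaled intensity of miRNAs that define cell types on the 6 week 30 arrays (blue chow, orange high fat, shapes for replicates; dotted line, floor). High fat replicate 1 (orange circle) lies farthest out for miR-143-3p, miR-142a-3p, miR-150-5p, miR-1a-3p and miR-133a-3p, and chow replicate 2 (blue square) for miR-200b-3p, miR-200c-3p and miR-205-5p.

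None of the 11 lipid regulators tested passed the threshold. Of these, 10 had negative differences, 8 without overlap (all lower, as were 25.6% of all 609). At an unadjusted p under 0.05 was 1 (6.9% of all 609 were lower there). The median was -0.64, and -0.31 after the GC trend was removed. Beside miR-148a-3p, its seed relative miR-152-3p read 7.95, 7.95 and 8.01 in chow and 4.27, 7.89 and 7.78 in high fat (difference -1.32, SE 0.74; -0.13 without high fat replicate 1). miR-144-3p, which targets the cholesterol exporter ABCA1 and comes from red cell precursors, read 7.64, 6.50 and 6.14 against 3.10, 5.88 and 5.58. miR-26a-5p read 11.31, 11.18 and 10.92 against 10.64, 10.51 and 10.52, so that all high fat arrays lay close together below chow (difference -0.58, SE 0.39, adjusted p = 0.347 in limma). Its difference was 0.12 after the GC trend was removed and 0.29 with slide as a fixed term. miR-33-5p, which lies in a cholesterol synthesis regulator's gene, was not tested because no group had it detected on every array, and liver miR-122-5p overlapped.

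All 11 let-7 family members, which hold back growth genes in mature cells, had negative differences, with a median of -0.76. At an unadjusted p under 0.05 were 4 (6.9% of all 609 were lower there). Without overlap were 6 (25.6% of all 609 lay wholly below chow). let-7f-5p read 11.84, 11.14 and 11.28 in chow and 9.81, 10.63 and 10.34 in high fat (difference -1.16, SE 0.42). let-7g-5p read 10.87, 10.36 and 10.68 against 8.27, 10.23 and 9.87 (difference -1.18, SE 0.54). let-7b-5p, by contrast, read 11.98, 11.47 and 11.51 against 12.54, 11.20 and 11.06, a difference of -0.05. The probes of let-7f-5p and let-7g-5p hold 33.3% and 38.1% G and C and that of let-7b-5p 47.4%, and these relatives can hybridise to one another's probes. After a GC trend was taken out of each array the family's median was 0.11.

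In the miR-15/16 family, which restrains the cell cycle, all 5 members tested had negative differences, from -0.08 for miR-15b-5p to -1.78 for miR-15a-5p, with a median of -1.50. None passed the threshold, and 2 were at an unadjusted p under 0.05 (6.9% of all 609 were lower there). Without overlap were 4 (25.6% of all 609 lay wholly below chow). miR-195a-5p read 9.11, 9.38 and 8.90 in chow and 5.76, 8.35 and 8.16 in high fat (difference -1.71, SE 0.61). miR-497a-5p, its neighbour on chromosome 11, read 8.78, 8.79 and 8.31 against 7.95, 7.81 and 7.66 (difference -0.82, SE 0.39), with no high fat array standing apart. miR-15a-5p read 9.51, 9.41 and 9.16 against 5.46, 8.74 and 8.53. Without high fat replicate 1 the family's median was -0.88, and after the GC trend was removed it was -0.83. The 3 tested miRNAs with the seed of miR-29, which represses collagens and other matrix genes, lay below chow on all high fat arrays, from -0.40 for miR-29a-3p to -1.40 for miR-29b-3p. So did the passenger arm miR-29c-5p, which has another seed (25.6% of all 609 lay wholly below chow). None of these 4 was at an unadjusted p under 0.05 (6.9% of all 609 were lower there). Their median was -0.72, -0.44 without high fat replicate 1 and -0.09 after the GC trend was removed. With that trend removed, miR-29a-3p (0.25) and miR-29c-3p (0.03) had positive differences.

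In the miR-17~92 family of growth-promoting miRNAs and its paralogs, 12 were tested, with a median of -0.23. Without overlap were 5, all lower (25.6% of all 609 lay wholly below chow). miR-19b-3p read 8.27, 7.94 and 7.99 in chow and 3.73, 7.67 and 7.54 in high fat, a difference of -1.75 (SE 0.87), and of -0.46 without high fat replicate 1. miR-92a-3p, processed from the same transcript, read 8.56 on that array and 6.81 and 6.84 on the other high fat arrays, against 7.001 to 7.22 in chow. miR-204-5p, within Trpm3, read 5.98, 6.37 and 5.57 against 5.02, 5.14 and 4.997 (difference -0.92, SE 0.36). Of 16 tested miRNAs of the imprinted Dlk1-Dio3 cluster on chromosome 12, 8 were higher and 8 lower, and 13 overlapped (54.2% of all 609 did not). The exceptions were miR-376c-3p and miR-136-5p, which were lower, and miR-134-5p, which read 4.62, 5.05 and 4.96 against 6.32, 6.34 and 6.57 (difference 1.53, SE 0.57).

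**Figure D3:**
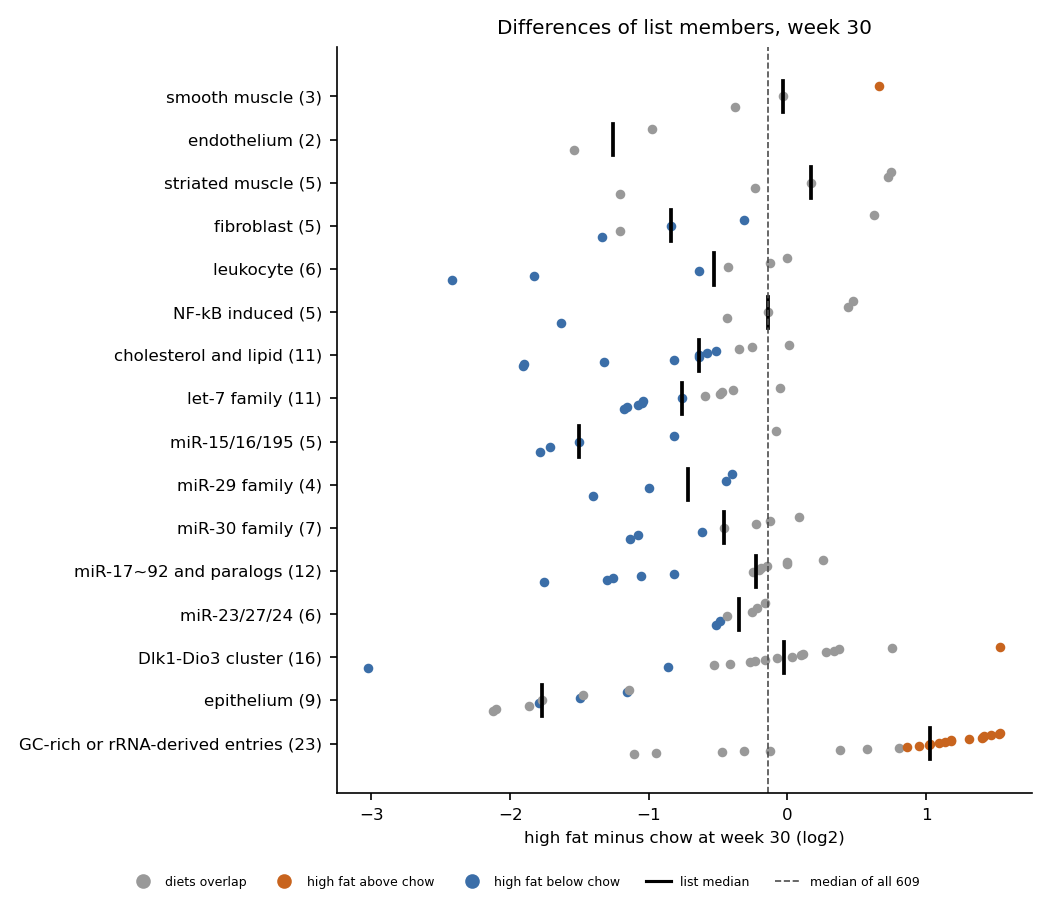
High fat minus chow difference (log2) at week 30 of every tested member of 16 lists, 1 point per miRNA, with the list's median as a bar and the median of all 609 (-0.14) as a dashed line. The let-7, miR-15/16, miR-29, miR-23/27/24, endothelium and epithelium lists lie wholly below 0, and the GC-rich entries have a median of 1.03.

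The direction of the difference followed the base composition of the probe. Across the 609 miRNAs the difference and the GC content of the longest probe had a Pearson r of 0.53 (Spearman 0.54), given as a description since miRNAs share arrays and are not independent. In the lowest of 4 GC classes (133 miRNAs) the median was -0.995, with 2 wholly above chow and 61 wholly below. The next classes had medians of -0.45 and 0.38, and in the class of highest GC (180 miRNAs) it was 0.80, with 100 above and 19 below. The same r was 0.48 without high fat replicate 1, 0.13 for the diet difference of week 6 and 0.17 for that of week 18. The 12 higher miRNAs described first had a median probe GC of 60.8% and the 12 lower ones 40.5%.

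**Figure D4:**
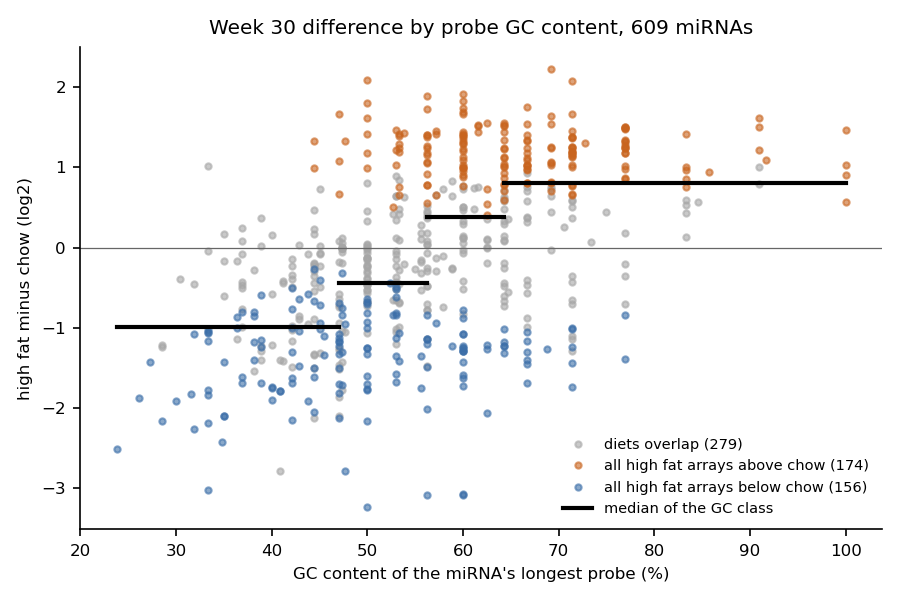
High fat minus chow difference (log2) at week 30 against the GC content of each miRNA's longest probe (%), 1 point per miRNA, with the median of each GC class as a black line. Points wholly above chow (174, orange) gather at high GC and points wholly below (156, blue) at low GC.

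Each array carried its own gradient. The median deviation of the highest GC class minus that of the lowest was -0.45, -0.04 and -0.04 on the chow arrays and 2.20, 0.93 and 1.23 on the high fat arrays of week 30. On slide 3 the array of week 18 high fat replicate 3 read 0.90. On slide 2 the gradient was 2.09 on week 18 chow replicate 1 and 1.55 on week 18 high fat replicate 1, and on the remaining arrays of the study it ran from -1.69 to 0.39. So it was positive on every slide 3 array, but it was as large on 2 arrays of slide 2, 1 of either diet. Once a smooth GC trend was removed from each array, the fit of the 6 arrays called 3 miRNAs, against 117 before. Lower were miR-302c-3p (-2.85) and miR-7661-3p (-3.07), and higher was miR-721 (2.18), each with an adjusted p of 0.0482 in limma. Of these 3, 2 were also among the 117. The third, miR-721, was not, and its difference before the trend was removed was 1.02. The fit of 20 arrays called 0, with 57 higher and 36 lower at an unadjusted p under 0.05. All 24 miRNAs described first kept their sign, with a median of 1.48 on the higher side (0.20 to 2.21) and -1.001 on the lower (-3.07 to -0.40). The smallest were 0.20 for miR-2861 and -0.40 for miR-669b-3p. The part of slide, RNA quality or diet in the gradient was not tested.

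**Figure D5:**
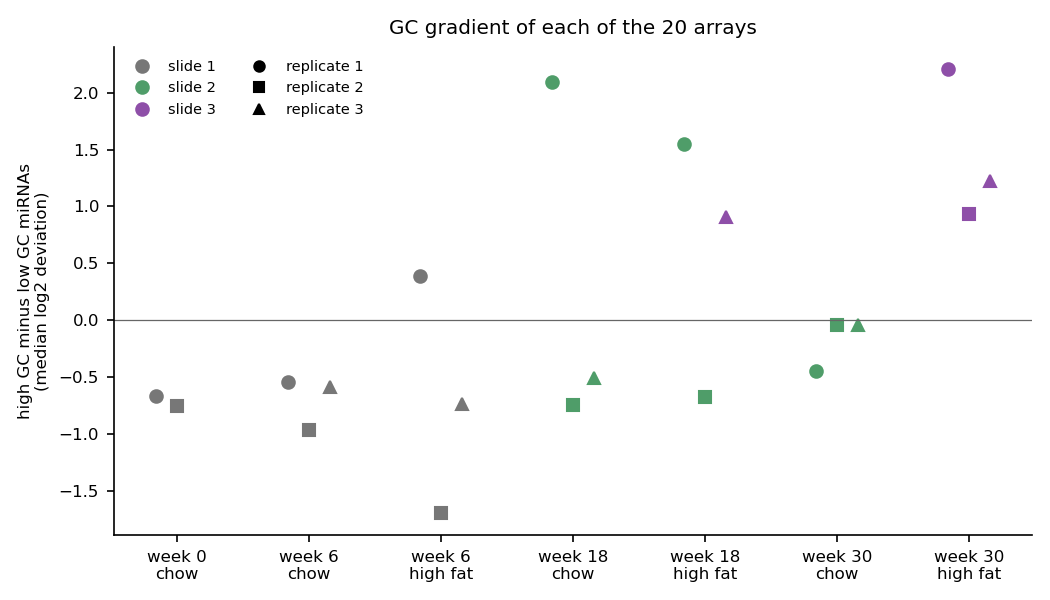
Median log2 deviation of miRNAs with high GC probes minus that of miRNAs with low GC probes (vertical axis) for each of the 20 arrays, by group, coloured by slide. The 3 week 30 high fat arrays sit at 0.93 to 2.20 and the 3 chow arrays at -0.45 to -0.04.

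The list of GC-rich or ribosomal RNA derived entries was the counterpart: 18 of 23 tested had positive differences, and the median was 1.03. Without overlap were 15, all higher (28.6% of all 609 lay wholly above chow). At an unadjusted p under 0.05 were 5 (9.85% of all 609 were higher there). miR-1895 read 7.44, 7.98 and 8.06 in chow and 9.30, 9.35 and 9.44 in high fat (difference 1.54, SE 0.62). miR-1894-3p read 6.64, 6.48 and 6.31 against 7.75, 7.47 and 7.62 (difference 1.14, SE 0.40). The list's median was 0.35 with no scaling and 0.27 after the GC trend was removed.

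The families miR-297, miR-466, miR-467 and miR-669, most of which lie in an intron of Sfmbt2 on chromosome 2, had mostly negative differences in both arms. All 19 tested 3p arms had negative differences, from -0.94 to -2.26. Of these arms, 17 were without overlap, 12 at an unadjusted p under 0.05, and 14 past the threshold with only the 6 arrays. The shares on the lower side over all 609 were 25.6%, 6.9% and 4.76%, beside these counts of 3p arms. The mean level of the 3p arms was 5.77, 7.09 and 5.96 in chow and 4.33, 4.55 and 4.50 in high fat, so that chow replicate 2 was highest and the high fat arrays lay close together. The median of -1.88 was -1.44 without chow replicate 2, -1.76 without high fat replicate 1 and -0.97 after the GC trend was removed. For some 3p arms the size is set in part by the floor. With the floor lower by 1, miR-669b-3p moved from -1.88 to -2.54 and miR-297a-3p from -1.69 to -2.36, while miR-467e-3p stayed at -2.16. With normexp, miR-297a-3p (0.06), miR-669d-3p (0.07) and miR-669l-3p (0.17) had positive differences, and miR-669a-3-3p, miR-669b-3p and miR-467e-3p kept negative ones. Of 17 tested 5p arms, 15 had negative differences (median -1.04, range -1.50 to 0.09; median -0.24 without high fat replicate 1). None of the 5p arms was free of overlap or at an unadjusted p under 0.05, and the difference between the arms was not tested. Their mean level was 3.68, 5.68 and 5.72 in high fat against 6.44, 6.18 and 5.05 in chow. These relatives have similar sequences, and their probes can share signal.

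The 24 miRNAs were chosen for their week 30 difference, so their values at weeks 6 and 18 are given as a description. For the 12 higher miRNAs the diet difference ran from -0.18 to 0.49 at week 6 and from 0.22 to 0.79 at week 18, against 1.29 to 2.08 at week 30. For the 12 lower ones it ran from -1.77 to 0.74 at week 6 and from -0.998 to 0.67 at week 18. None of the 24 passed the test of the difference between weeks; for miR-669a-3-3p, the largest gap to week 6 among them, it was -2.95 (SE 1.04, adjusted p = 0.329 in limma). Over all 609 miRNAs that test called 5 against week 6 (0.821%), all on the higher side, and 0 against week 18 (0.0%; 16 at an unadjusted p under 0.05, all lower, 2.63%). At week 30 miR-181b-5p read 4.72 to 5.32 and the other 4 lay at or within 1 of the floor, in both diets, where the floor holds the difference near 0. At week 6, high fat was lower than chow by 2.17 to 3.47.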

How the data were processed

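Each array's deposited intensity is the scanner software's processed, background-subtracted signal (the submitters' processing notes name version 11.5.1 of Agilent Feature Extraction); probe targets are on mm9, per the file headers. Control spots were left out, spots of 1 miRNA were averaged, and each array was scaled to its 75th percentile over miRNAs detected on all 20 arrays, given a floor and set on the log2 scale. Of 1881 miRNAs, 609 were tested, being well above background on every array of at least 1 group. The fit (limma 3.58.1, R 4.3.3) held all 7 groups and had 13 residual degrees of freedom, or 4 with the 6 week 30 arrays alone. The number of arrays limits the precision. Named miRNAs were the 12 of smallest p without overlap on each side, those detected in 1 diet only, a fixed panel and up to 4 members of each list, and a few other list members chosen after their values were seen. Members and lists were chosen with earlier results of these data known. The alternatives were scaling, background, filter, floor, probe choice, slide, replicate block and left-out arrays; 3 more, with a GC trend removed or 5 arrays, were chosen after seeing the data. The test was checked on simulated data. The stated slide position differed between label and header for 8 arrays, but slide and group did not.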

Additional observations from a re-analysis of the deposited data

Results flagged for a closer look

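The interaction term of diet and week, 30 against 6, passed the threshold in limma for 5 of the 609 miRNAs tested. For 4 of them, all but miR-181b-5p, the week 30 levels lay at or within 1 of the floor in both diets, which holds the week 30 difference near 0, so for these the term rests on week 6 and the week 30 difference has no measured size. The term was 3.47 for miR-181a-1-3p (SE 0.53, adjusted p = 0.00251), 2.44 for miR-363-3p (SE 0.44, adjusted p = 0.00967), 2.63 for miR-466p-5p (SE 0.53, adjusted p = 0.0203), 2.82 for miR-181b-5p (SE 0.60, adjusted p = 0.0251) and 2.13 for miR-466a-5p (SE 0.46, adjusted p = 0.0251). At week 30 the diets differed by -0.04 to 0.15 for these, and at week 6 high fat minus chow was -2.17 to -3.47. miR-181b-5p, a miRNA of endothelium and lymphocytes, had means of 8.73 in chow and 6.06 in high fat at week 6. miR-181a-1-3p had means of 6.98 and 3.51 there and lay at the floor on all 6 arrays of week 30.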

How the results depend on the processing

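The 0 calls between the diets became 117 with only the 6 week 30 arrays, 76 with those arrays without high fat replicate 1, 10 with no filter (all outside the 609), 3 with only those 6 arrays and a GC trend removed, and 1 with the slide as a fixed block. Leaving out any 1 week 30 array gave 0 to 0. The 5 calls between weeks 30 and 6 became 0 with no scaling, the percentile over all miRNAs, quantile normalization, normexp, only miRNAs detected on all 20 arrays, the slide as a fixed block, or near-identical arrays averaged. They became 3 with the floor lower by 1 or the brightest probe and 11 with no filter. Leaving out 1 week 30 array gave 2 (chow replicates 2 and 3, high fat replicates 2 and 3) to 3 (chow replicate 1, high fat replicate 1). The 0 calls between weeks 30 and 18 became 2 with no filter and 1 with the slide as a fixed block. The causes were not tested. The median of all differences moved from -0.14 to -0.57 with no scaling and 0.40 with normexp. At an unadjusted p under 0.05, 10 were higher and 63 lower with the slide as a fixed block, 60 and 13 without chow replicate 2, 43 and 49 without chow replicate 3, 44 and 17 without high fat replicate 1, and 29 and 11 for the 192 seen on all arrays. Of 132 named differences, 63 kept their sign in all 25 settings. Replicate numbers gave no sign of pairing: deviations of same-numbered arrays had r of -0.01, 0.10 and -0.13, and those of differently numbered arrays -0.19 to 0.17. With 3 arrays for each diet, this check cannot show that the samples were unpaired. The replicate block gave 0 calls, with 132 higher and 89 lower at an unadjusted p under 0.05.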

Other observations

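miR-302c-3p, miR-7661-3p and miR-6339 were low on mostly the same arrays across the study. All 3 lay within 1 log2 unit of the floor on 8 of the 20 arrays, the 3 week 30 high fat arrays and 5 at other weeks: both chow arrays of week 0, week 6 high fat replicate 3, and replicate 1 of either diet at week 18. On 10 arrays none was that low, and on 2 only miR-6339 was (week 6 high fat replicate 1 and week 30 chow replicate 3). Above that limit their levels ran from 4.53 to 7.46, from 5.10 to 7.53 and from 4.99 to 6.92. Week 18 high fat replicate 3, on the slide of the week 30 high fat arrays, read 4.62, 6.07 and 5.21. They lie in RefSeq within the spans of different genes, Larp7, Itpr1 and Tgm3, and were singled out after their values were seen.

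miR-6339 and miR-6386 share the seed AUGCCUU but differed in opposite directions at week 30, by -2.05 and 1.83.
miR-6339: gAUGCCUUuguccucaguguuag
miR-6386: cAUGCCUUagggugggaugcaagu
Over 59 hairpins with both arms tested, the 2 arms differed between the diets in the same direction for 27. The differences of the 5p and 3p arms had a Pearson r of -0.01, given as a description. The part of probe GC content in this was not tested.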
